A study of Mus musculus with 8 samples.

Results

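The endocannabinoid genes described here are 9 mouse genes: the cannabinoid receptors Cnr1 and Cnr2, and the enzymes that make and break down their lipid ligands, Napepld, Faah, Dagla, Daglb, Mgll, Abhd6 and Abhd12. They were chosen by symbol, and each symbol matched 1 of the 49585 gene identifiers listed. The levels came from polyA RNA of the lumbar spinal dorsal horn, segments 4 to 6, of adult C57BL/6J mice. There were 4 libraries of wild-type mice and 4 of miR-96 knock-out mice. The deleted gene encodes a microRNA and lies beside those of miR-182 and miR-183. The title of the series concerns repression of voltage-gated sodium channels by miR-96 and allodynia, which is pain evoked by harmless touch. The sources used here give neither the allele, the tissues that lack miR-96, the sex of the mice nor any pooling of animals. Nothing in the labels ties each library to its own animal. The p-values therefore measure only the spread between libraries, which may be technical.

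Endocannabinoids are lipids made on demand, mostly in the postsynaptic neuron, that travel back across the synapse and reduce transmitter release. In the dorsal horn this brake acts on terminals that carry pain and touch signals, through the receptor CB1, the product of Cnr1. The main ligands are 2-arachidonoylglycerol (2-AG) and anandamide, and each has its own enzymes of synthesis and hydrolysis.

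The loss of miR-96 bears on these genes by a sequence question: which of their transcripts hold a match to its seed, the bases that pair with a target. The mature sequence (RefSeq, GRCm38.p6, chr6:30169506-30169528, minus strand) is shown with the seed, bases 2 to 8, in capitals, because the search below rests on it.
mmu-miR-96-5p: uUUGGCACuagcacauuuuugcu

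The longest annotated 3′ untranslated region (UTR) of each gene was searched, on the transcript strand, for GTGCCAA, the match to bases 2 to 8, and for TGCCAAA, the match to bases 2 to 7 followed by A. The forms overlap by 6 bases, and GTGCCAAA joins them. Of the 9 genes, 2 held a match, Cnr1 and Napepld, and in each it was the joined form. They are shown with the match in capitals, since these are the transcripts that miR-96 could pair with by this rule.
Cnr1 (chr4:33946709-33946716, plus strand, base 1674 of a 3796-base UTR): tatcaagatGTGCCAAAacataaaga
Napepld (chr5:21664649-21664656, minus strand, base 572 of a 2327-base UTR): ttagcttacGTGCCAAAtgttaagtg

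Neither form was found in the longest UTR of Cnr2, Faah, Mgll, Dagla, Daglb, Abhd6 or Abhd12, which ran from 888 bases in Abhd12 to 5208 in Dagla. Among 13075 tested genes with a UTR of at least 50 bases, 22.2% held either form and 3.48% the joined one. In the 3407 of them with a UTR of 2000 to 4000 bases, the range that holds both Cnr1 and Napepld, the shares were 34.3% and 5.43%. A match is a description of the letters and not evidence of binding.

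The targeted gene, Mir96, was at 0 FPKM in every library, and so were its cluster partners Mir182 and Mir183. FPKM are fragment counts scaled to transcript length and library depth. Mature microRNAs are too short for such a polyA library, so these values say nothing of the genotype labels. All 12 dorsal horn markers, neuropeptide genes and transcription factors such as Penk and Lmx1b, were above 0 in every library. Their sum was 730 to 1076 FPKM in the wild-type group and 583 to 870 in the knock-out group, with 11 of the 12 log2 fold changes below 0, beside 46.9% of all genes tested, and 2 of them at unadjusted p under 0.05, beside 1.83% of all genes. Depth, estimated from the steps of 1 fragment in low genes with an assumed fragment length of 200 nt, was 31800000 to 42900000 fragments per library. Wild type replicate 1 stood apart on the first principal component of all 15061 genes tested, at 51.4 against -16.6 to 5.05 elsewhere. That component held 46.6% of the variance. Summed levels of 8 liver genes such as Alb were 28.9 to 54.9 FPKM in knock-out and 1.28 to 11.9 in wild type, and all 6 of those tested were higher at unadjusted p under 0.05, beside 3.69% of all genes. The part of these markers in the results below was not tested.

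No endocannabinoid gene passed a test of difference between the genotypes. Of the 9, 8 had a mean of at least 1 FPKM and were tested. None passed limma's adjusted p of 0.05, against 0 of 15061 genes (0%). None had an unadjusted p under 0.05, against 831 genes (5.52%), and in none did all knock-out libraries lie on 1 side of all wild-type libraries, against 457 genes (3.03%, with 1.91% higher and 1.12% lower in knock-out). At unadjusted p under 0.05 there were 325 genes when knock-out replicate 1 was left out and 3151 when wild type replicate 4 was. That threshold was met by Cnr1 without wild type replicate 4 (unadjusted p = 0.0056, limma adjusted p = 0.198). Mgll met it without knock-out replicate 3 (unadjusted p = 0.0063, limma adjusted p = 0.491), where 1438 of all genes did. With library weights, where 5014 of all genes met it, so did Cnr1 (unadjusted p = 0.0085), Mgll (0.0176) and Abhd12 (0.0471), with limma adjusted p of 0.0600, 0.0830 and 0.145. The levels of the genes spanned a far wider range than the libraries of any 1 gene. Abhd12 was the most abundant, followed by Mgll, Abhd6 and Faah, then Dagla and Cnr1, then Daglb and Napepld, with Cnr2 near 0.

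**Figure D1:**
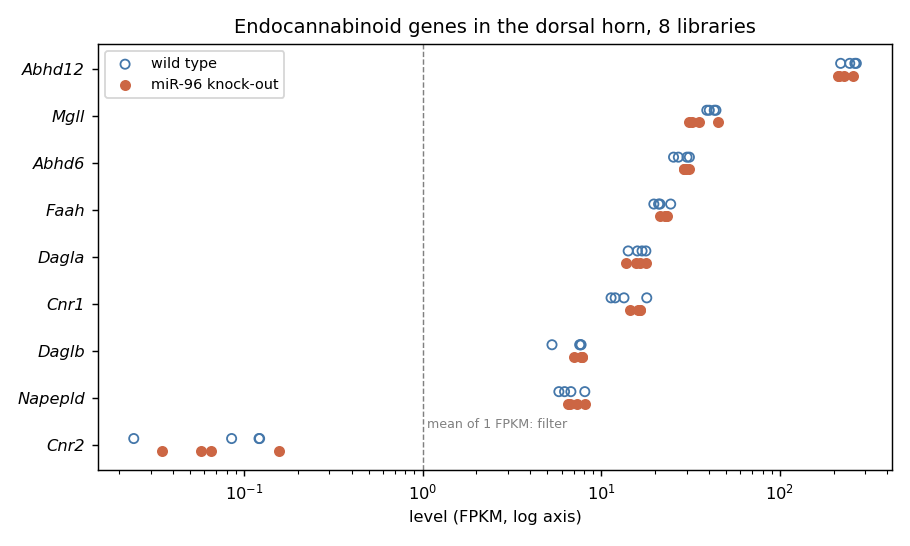
Level of each gene in FPKM (log axis) in the 8 libraries, open blue circles for wild type and filled orange circles for knock-out. The genes span from under 0.2 FPKM for Cnr2 to over 200 FPKM for Abhd12, and the genotypes overlap in every gene.

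Cnr1 (ENSMUSG00000044288, chromosome 4, 33924593 to 33948831, plus strand on GRCm38) encodes CB1, the receptor that presynaptic terminals carry. The wild-type libraries, in the order of replicates 1 to 4, held 11.96, 11.3, 13.4 and 17.97 FPKM, and the knock-outs 15.96, 16.5, 14.4 and 16.4 FPKM; other genes are given in the same order. Every knock-out library was above wild type replicates 1, 2 and 3, and wild type replicate 4 was the highest of all. The means were 13.7 ± 2.99 FPKM in the wild-type libraries and 15.8 ± 0.969 in the knock-outs (SD, n = 4 each). The log2 fold change, knock-out minus wild type on log2(FPKM + 1), was 0.22, with a limma standard error (SE) of 0.13, a 95% interval of -0.084 to 0.52 and an adjusted p of 0.62. It was 0.35 without wild type replicate 4, 0.14 without wild type replicate 2 and 0.10 with the trend of each library on transcript length removed. The 9 neuronal markers summed to 2034 to 2257 FPKM in the wild-type libraries and 1957 to 2086 in the knock-outs. Snap25, at 738 to 1046 FPKM over the 8 libraries, weighed most in these sums. Of the 9 log2 fold changes, 5 were above 0 and 4 below, beside 53.1% and 46.9% of all genes tested. In 1 of them, Slc32a1, every knock-out library was below every wild-type library, beside 1.12% of all genes tested. In bulk tissue, fewer cells of a type and less RNA per cell cannot be told apart.

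Cnr2 (ENSMUSG00000062585, chromosome 4, 135895394 to 135920207, plus strand) encodes CB2, a receptor known mainly from immune cells. Its levels were 0.0242, 0.122, 0.121 and 0.0853 FPKM in the wild-type libraries and 0.156, 0.0651, 0.0578 and 0.0346 in the knock-outs. Wild type replicate 1 was the lowest and knock-out replicate 1 the highest, with the genotypes interleaved. By the depth estimate these values stand for about 3.0 to 24.3 fragments per library, too few to test, and the gene fell under the filter. With no filter its log2 fold change was -0.013 (limma adjusted p = 0.935). The 8 microglial markers summed to 123 to 177 FPKM in the wild-type libraries and 134 to 157 in the knock-outs. Of the leukocyte genes, the B cell marker Ms4a1 was at 0 in 5 libraries and at most 0.0114 FPKM in the others. The other B cell genes listed, Cd79a and Cd79b, were at 0.0905 to 0.674 and 0 to 0.257 FPKM over the 8 libraries. The blood and leukocyte list, 8 of 12 markers above 0 in every library, summed highest in wild type replicate 1, at 206 FPKM against 6.77 to 59.9 elsewhere. Of that sum, the haemoglobin genes Hbb-bs and Hba-a1 gave 114 and 69.8 FPKM, so it mainly reflects these and not leukocytes. The leukocyte genes S100a8 and S100a9 were highest in wild type replicate 2 (10.6 FPKM) and knock-out replicate 2 (9.74 FPKM).

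**Figure D2:**
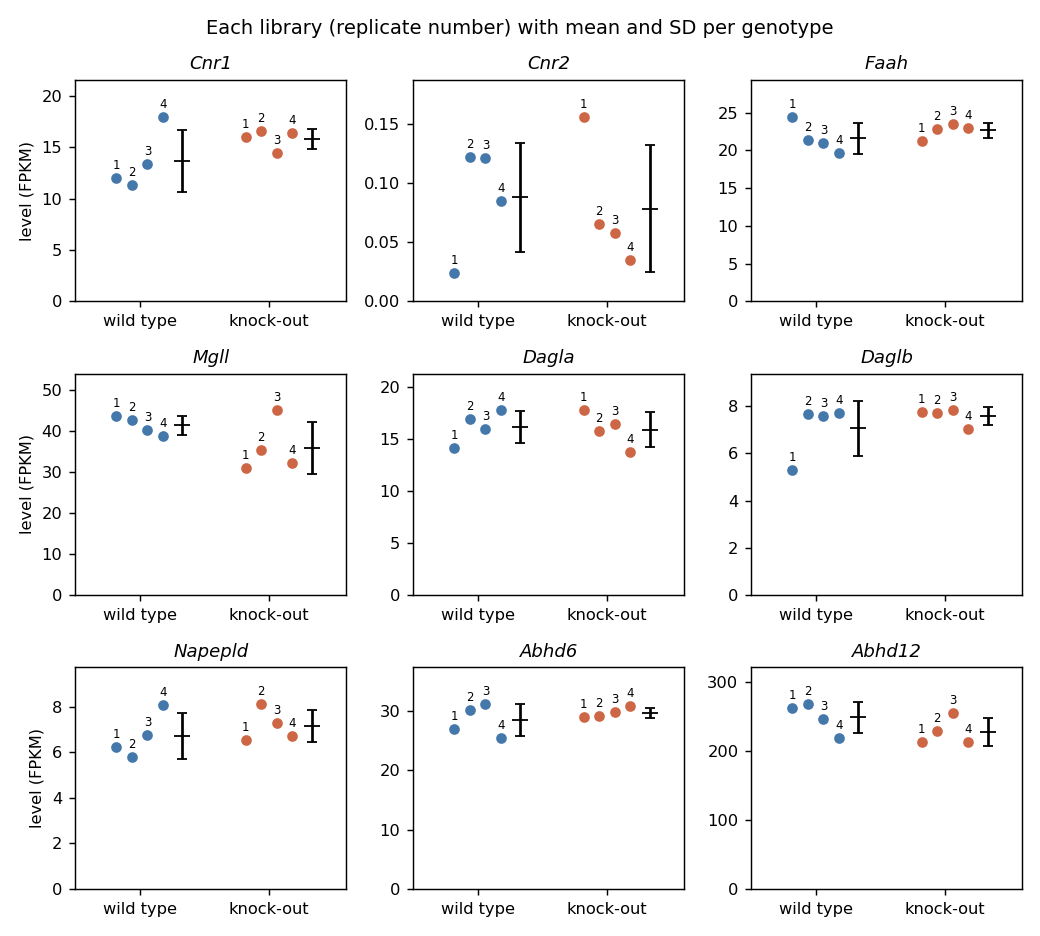
Level of each gene in FPKM in every library, numbered by replicate, with the mean and SD (n = 4) of each genotype in black; every axis starts at 0. The genotypes overlap in all 9 panels, with wild type replicate 4 highest for Cnr1 and wild type replicate 1 lowest for Daglb.

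The anandamide enzymes were at moderate levels, with overlapping genotypes. Napepld (ENSMUSG00000044968, chromosome 5, 21662901 to 21701396, minus strand) encodes a phospholipase D that releases anandamide and related N-acylethanolamines from membrane lipid. It was at 6.23, 5.79, 6.76 and 8.09 FPKM in the wild-type libraries and 6.52, 8.11, 7.29 and 6.71 in the knock-outs. Wild type replicate 4 and knock-out replicate 2 were the highest, and the other 6 libraries interleaved. The means were 6.72 ± 0.996 and 7.16 ± 0.714 FPKM, and the log2 fold change was 0.084 (SE 0.12, 95% interval -0.18 to 0.35, limma adjusted p = 0.769). It was 0.17 without wild type replicate 4, 0.026 without wild type replicate 2 and 0.030 without knock-out replicate 2. The genes with a miR-96 match, Cnr1 and Napepld, had log2 fold changes of 0.22 and 0.084, neither past the threshold. Among tested genes with a UTR of 2000 to 4000 bases, the median log2 fold change was 0.046 over the 185 with the joined match and 0.050 over those with neither form. Over tested genes with a UTR of any length from 50 bases, those medians were 0.068, over 455 genes, and -0.0071. These medians are a description with no test.

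Faah (ENSMUSG00000034171, chromosome 4, 115967145 to 116017926, minus strand) encodes fatty acid amide hydrolase, the main enzyme that ends anandamide signalling. It was at 24.5, 21.3, 20.9 and 19.7 FPKM in the wild-type libraries and 21.2, 22.9, 23.4 and 22.97 in the knock-outs. Wild type replicates 1 and 4 were the highest and the lowest of the 8, and the knock-out libraries lay between them. The means were 21.6 ± 2.03 and 22.6 ± 0.954 FPKM, and the log2 fold change was 0.068 (SE 0.088, 95% interval -0.13 to 0.26, limma adjusted p = 0.753). Its sign turned with the length trend removed, at -0.033, and it was 0.13 without wild type replicate 1 and 0.027 without wild type replicate 4. Within a library, Faah was 2.43 to 3.93 times Napepld in wild type and 2.82 to 3.43 times in knock-out, as FPKM over FPKM.

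The 2-AG synthases, the diacylglycerol lipases, differed in level from each other, and neither passed the test between genotypes. Dagla (ENSMUSG00000035735, chromosome 19, 10245265 to 10304877, minus strand) encodes the isoform that makes the 2-AG of neuronal synapses. It was at 14.1, 16.9, 15.9 and 17.8 FPKM in the wild-type libraries and 17.8, 15.7, 16.4 and 13.8 in the knock-outs. The libraries of both genotypes covered nearly the same range, and the means were 16.2 ± 1.55 and 15.9 ± 1.65 FPKM. The log2 fold change was -0.022 (SE 0.10, 95% interval -0.26 to 0.21, limma adjusted p = 0.937). Its sign turned without wild type replicate 4 (0.021) or knock-out replicate 4 (0.040). The value was -0.082 when wild type replicate 1 was left out. With the length trend removed it was -0.13.

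Daglb (ENSMUSG00000039206, chromosome 5, 143464584 to 143505942, plus strand) encodes the isoform known from microglia and macrophages. It was at 5.30, 7.65, 7.57 and 7.71 FPKM in the wild-type libraries and 7.77, 7.71, 7.81 and 7.02 in the knock-outs. Wild type replicate 1 was well below the other 7 libraries, which lay within 7.02 to 7.81. The log2 fold change of 0.10 (SE 0.12, 95% interval -0.17 to 0.38, limma adjusted p = 0.732) turned to -0.012 without that library. Daglb overlaps the opposite-strand gene Rac1 over 2309 bases. Rac1 was at 118 to 150 FPKM, and since the use of strand in counting is not given in the sources used here, reads from that stretch cannot be told apart. The annotated genes that overlap Mgll, Napepld and Abhd12 were at most 0.619 FPKM in any library. Dagla overlaps the opposite-strand gene AC132148.1 over 2496 bases, for which no level was analysed here. Dagla exceeded Daglb in every library, by 2.10 to 2.67 times in wild type and 1.97 to 2.29 times in knock-out.

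Mgll (ENSMUSG00000033174, chromosome 6, 88724412 to 88828360, plus strand) encodes monoacylglycerol lipase, the main 2-AG hydrolase of the nervous system. It was at 43.8, 42.9, 40.2 and 38.97 FPKM in the wild-type libraries and 31.1, 35.4, 45.1 and 32.4 in the knock-outs. Knock-out replicates 1, 2 and 4 were below every wild-type library, while knock-out replicate 3 was above them all. The means were 41.5 ± 2.26 and 36.0 ± 6.33 FPKM. The log2 fold change was -0.21 (SE 0.12, 95% interval -0.47 to 0.049, limma adjusted p = 0.62). Without knock-out replicate 3 it was -0.32 (limma adjusted p = 0.491, with adjusted p from 0.0830 to 0.833 over all alternatives).

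Abhd12 (ENSMUSG00000032046, chromosome 2, 150832493 to 150904741, minus strand) encodes a lipase known for hydrolysing lysophosphatidylserine and also active on 2-AG. It was at 263, 268, 246 and 219 FPKM in the wild-type libraries and 212, 229, 255 and 213 in the knock-outs. Knock-out replicate 3 lay among wild type replicates 1, 2 and 3, and wild type replicate 4 among the other knock-out libraries. The means were 249 ± 22.1 and 227 ± 20.1 FPKM, with a log2 fold change of -0.13 (SE 0.10, 95% interval -0.35 to 0.097, limma adjusted p = 0.633). It was -0.013 with quantile normalization and -0.042 with the length trend removed.

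Abhd6 (ENSMUSG00000025277, chromosome 14, 8002902 to 8056763, plus strand) encodes a hydrolase that removes 2-AG near its site of synthesis in the postsynaptic cell. It was at 27.0, 30.2, 31.1 and 25.4 FPKM in the wild-type libraries and 29.0, 29.2, 29.8 and 30.9 in the knock-outs. The knock-out libraries lay within the wild-type range. The means were 28.4 ± 2.69 and 29.7 ± 0.837 FPKM, and the log2 fold change was 0.066 (SE 0.087, 95% interval -0.13 to 0.26, limma adjusted p = 0.753). With library weights its sign turned, at -0.044, and it was 0.015 without wild type replicate 4 and 0.11 without wild type replicate 3. With the length trend removed it was 0.14.

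**Figure D3:**
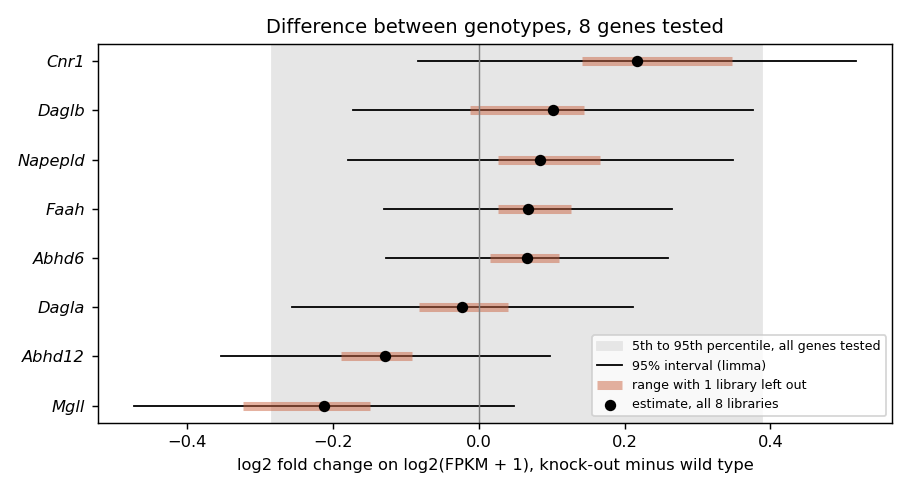
Log2 fold change on log2(FPKM + 1), knock-out minus wild type, of the 8 genes tested, with 95% limma intervals (black), the range when 1 library is left out (orange) and the 5th to 95th percentile of all 15061 genes (grey, -0.28 to 0.39). Every interval includes 0, and Cnr1 at 0.22 and Mgll at -0.21 lie farthest apart.

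As a group the 8 genes had a median log2 fold change of 0.067, with 5 above 0 and 3 below, beside a median of 0.014 over all genes tested and 46.9% of those below 0. That median was 0.016 without wild type replicate 1 and 0.024 without wild type replicate 4, and it turned to -0.0061 with library weights. Removal of the length trend brought it to -0.0004. The order of the levels was stable. Abhd12, above 97.6% of genes tested by mean level, was 5.61 to 6.82 times Mgll in each library. Mgll exceeded Abhd6, Abhd6 exceeded Faah and Faah exceeded Dagla in 8 of 8 libraries, by median ratios of 1.36, 1.32 and 1.37. The neighbours Dagla and Cnr1 kept that order in 5 of 8 libraries, as did Daglb and Napepld, so neither pair could be ordered.

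Abhd12 made up most of the 2-AG hydrolase transcripts, while the ratio of Mgll to Abhd6 varied between libraries. Of the summed FPKM of the hydrolase genes Mgll, Abhd6 and Abhd12, Abhd12 made up 77.3% to 78.8% in wild type and 77.1% to 78.0% in knock-out. Mgll made up 12.6% to 13.8% and 11.4% to 13.7%, and Abhd6 8.10% to 9.81% and 9.03% to 11.2%. Mgll was 1.29 to 1.62 times Abhd6 in wild type and 1.05 to 1.51 times in knock-out. Mgll was 2.19 to 3.10 times Dagla in wild type and 1.75 to 2.75 times in knock-out, and the ratio of Cnr1 to Mgll was 0.265 to 0.461 and 0.320 to 0.513. All these ranges overlap. They are transcript ratios and not enzyme activities.

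Cnr1, Mgll and Abhd12 parted the libraries into the same sets, with Cnr1 in the opposite direction. The sets matched genotype except for wild type replicate 4 and knock-out replicate 3. Wild type replicates 1, 2 and 3 and knock-out replicate 3 held the 4 highest levels of both Mgll and Abhd12 and the 4 lowest of Cnr1. In wild type replicate 4 Cnr1 was at 121.9% of its mean over 8 libraries and Abhd12 at 91.9%, while in wild type replicate 2 they were at 76.9% and 112.4%. Along the first principal component the same 4 libraries came first, at 51.4, 5.05, 2.07 and -1.66, and wild type replicate 4 was at -11.6, beside -13.3 to -16.6 for knock-out replicates 1, 2 and 4. This order was seen in the values and has no test, and since that component describes all genes, it is not particular to these 3. The slope of each library's log2 levels on log2 transcript length followed nearly the same order. It was -0.10, -0.015, -0.0061 and 0.0010 in those 4 libraries, 0.042 in wild type replicate 4, and 0.0093 to 0.039 in knock-out replicates 1, 2 and 4. The longest transcript was 5807 nt for Cnr1, 3991 nt for Mgll and 1999 nt for Abhd12. It was 5537 nt for Faah and 5634 nt for Dagla. Faah was highest in wild type replicate 1, at 110.6% of its mean, and lowest in wild type replicate 4, at 89.0%. Dagla was highest in knock-out replicate 1 and wild type replicate 4, both at 110.6% of its mean. It was at 88.1% in wild type replicate 1 and lowest in knock-out replicate 4, at 86.0%. With the length trend removed, the log2 fold changes of Cnr1, Mgll and Abhd12 were 0.10, -0.24 and -0.042. The part of transcript length in this order was not tested gene by gene.

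**Figure D4:**
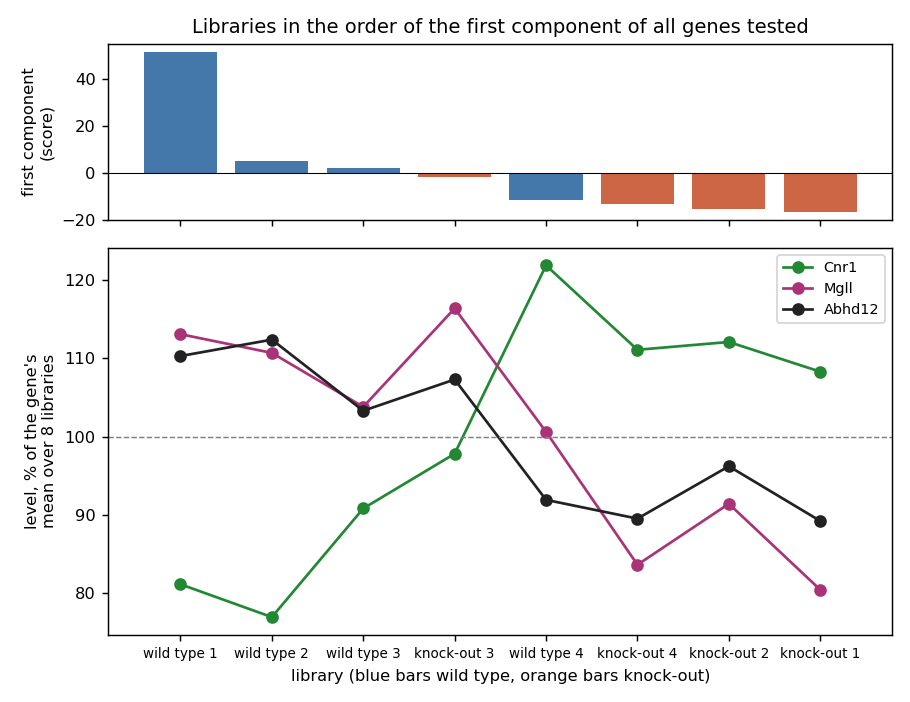
Score of each library on the first principal component of all genes tested (top, blue bars wild type, orange bars knock-out) and level of Cnr1, Mgll and Abhd12 as a percentage of each gene's mean over 8 libraries (bottom), libraries in the order of the component. Cnr1 is below 100% in the first 4 libraries and above it in the last 4, and Abhd12 the reverse.

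The genes whose levels followed Cnr1 most closely, by Pearson correlation of log2(FPKM + 1) over the 8 libraries among 12900 protein-coding genes, were Plppr4, Srrm1, Rrm2b, Tgs1 and Ddx5. Their correlations ran from 0.987 to 0.997 (Spearman 0.929 to 1.0). They are given as a description with no p, since they are the highest of many and the libraries share the component above. Plppr4 encodes a lipid phosphatase-related protein of synapses, Srrm1 and Ddx5 proteins of RNA processing, Rrm2b a ribonucleotide reductase subunit and Tgs1 an RNA cap methyltransferase. Plppr4 was at 9.04 ± 2.67 FPKM in the wild-type libraries and 10.9 ± 1.02 in the knock-outs, and its log2 fold change was 0.28 (SE 0.17, limma adjusted p = 0.62), and like Cnr1 it was highest in wild type replicate 4, at 12.9 FPKM.

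Around the core genes, 50 genes on 6 lists described the rest of the pathway. Of these, 40 were tested. None passed the adjusted threshold, and at unadjusted p under 0.05 there were 1 higher and 2 lower in knock-out, beside 3.69% and 1.83% of all genes tested. The 40 genes had a median log2 fold change of 0.058, with 24 above 0 and 16 below, beside 53.1% and 46.9% of all genes tested. Their longest transcripts ran from 823 nt for Fabp3 to 10982 nt for Homer2. By list, these lengths were 4336 to 10982 nt for receptors and scaffolds of 2-AG release and 2715 to 9439 nt for phospholipases C. They were 1848 to 7135 nt for CB1 partners and G protein signalling and 1148 to 4937 nt for other anandamide enzymes. The lipid carriers had 823 to 3238 nt, and the other receptors tested 3413 and 3726 nt. The part of transcript length in the direction of each list was not tested.

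Genes for the receptors and scaffolds that trigger 2-AG release had the highest median, 0.34. Of them, 5 of 5 tested genes were above 0, beside 53.1% of all genes tested. Grm5, the metabotropic glutamate receptor mGluR5 that drives 2-AG synthesis, was at 27.4, 27.3, 27.9 and 43.2 FPKM in the wild-type libraries and 42.7, 41.3, 34.1 and 41.9 in the knock-outs. Like Cnr1, it was highest in wild type replicate 4 and lowest among knock-outs in replicate 3. Its log2 fold change was 0.36 (SE 0.15, unadjusted p = 0.0403, limma adjusted p = 0.62). The scaffold genes Homer2 and Homer1, whose products tie that receptor to the synapse, had log2 fold changes of 0.34 (SE 0.17) and 0.36 (SE 0.21), with wild type replicate 1 lowest in both at 6.35 and 6.12 FPKM. Chrm1, a muscarinic receptor, was below 1 FPKM in every library.

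Phospholipases C, which supply the diacylglycerol that Dagla and Daglb cleave, had a median of 0.15. Of them, 8 of 9 tested genes were above 0, beside 53.1% of all genes tested, and none had an unadjusted p under 0.05. Plcb1 was at 17.2, 16.6, 19.8 and 30.4 FPKM in the wild-type libraries and 27.8, 29.2, 18.6 and 33.4 in the knock-outs, and its log2 fold change was 0.37 (SE 0.21, limma adjusted p = 0.62). Plcb4, the most abundant of them, was at 59.2 ± 19.3 and 74.7 ± 11.6 FPKM (log2 fold change 0.36, SE 0.20), and Plce1 at 8.54 ± 2.28 and 10.4 ± 0.549 (0.29, SE 0.17). In Plcb1 and Plcb4 wild type replicate 4 again lay with knock-out replicates 1, 2 and 4, and knock-out replicate 3 nearer wild type replicates 1, 2 and 3.

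Genes of CB1 partners and of inhibitory G protein signalling had a median of 0.052. Of them, 7 of 12 were above 0 and 2 were lower at unadjusted p under 0.05, beside 53.1% and 1.83% of all genes tested. Cnrip1, whose product binds the tail of CB1, was at 20.9, 22.3, 18.5 and 20.2 FPKM in the wild-type libraries and 17.2, 19.1, 17.4 and 16.5 in the knock-outs. Only knock-out replicate 2 lay within the wild-type range, and the log2 fold change was -0.21 (SE 0.088, unadjusted p = 0.0399, limma adjusted p = 0.62). Grk2, a kinase that desensitises G protein-coupled receptors, was at 157, 160, 163 and 172 FPKM in the wild-type libraries and 142, 146, 153 and 134 in the knock-outs. It was the 1 gene of the 40 in which the genotypes did not overlap, beside 1.12% of all genes tested with knock-out below wild type, and its log2 fold change was -0.18 (SE 0.079, unadjusted p = 0.0456, limma adjusted p = 0.62). Sgip1, which slows the internalisation of CB1, was at 49.6 ± 9.14 and 57.5 ± 5.91 FPKM (0.22, SE 0.14).

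Other enzymes of anandamide and its relatives had a median of -0.034. Of them, 2 of 8 tested genes were above 0, beside 53.1% of all genes tested, and none had an unadjusted p under 0.05. Gde1, a phosphodiesterase of an alternative route to anandamide, was at 117 ± 11.2 FPKM in the wild-type libraries and 103 ± 13.1 in the knock-outs (log2 fold change -0.19, SE 0.11). Abhd4, which acts earlier in that route, was at 89.8 ± 9.91 and 82.3 ± 10.4 FPKM (-0.13, SE 0.11). Gdpd3, a lysophospholipase D, was at 2.83 ± 0.455 and 3.18 ± 0.728 (0.12, SE 0.16). The oxygenase genes Ptgs2, Alox12 and Alox15 were under the filter, Ptgs2 at 0.441 to 1.27 FPKM.

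All 4 intracellular lipid carriers were below 0 in log2 fold change, beside 46.9% of all genes tested. Their median was -0.18, and none had an unadjusted p under 0.05. Fabp3, a fatty acid-binding protein gene, was at 41.4 ± 7.02 and 34.8 ± 3.30 FPKM (-0.23, SE 0.12), Fabp5, whose product carries anandamide, at 61.5 ± 16.5 and 50.5 ± 5.15 (-0.25, SE 0.17), and Scp2, a sterol carrier, at 118 ± 16.1 and 108 ± 7.86 (-0.12, SE 0.11). Wild type replicate 1 was highest in each, with 82.5 FPKM of Fabp5 against 42.3 to 61.3 elsewhere.

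Of 7 other receptors of such lipids, 5 were under the filter. Ppara and Ppard, nuclear receptors for fatty acids, were tested, with log2 fold changes of 0.28 (SE 0.21) and 0.061 (SE 0.10). Ppara was at 0.530 FPKM in wild type replicate 1 and 1.15 to 2.21 in the other libraries, while Ppard was at 20.1 to 27.8 FPKM. The receptor genes Gpr55, Gpr18 and Gpr119 were at most 0.307, 0.103 and 0.0137 FPKM in any library, and Trpv1, the capsaicin receptor of sensory neurons that anandamide can open, was at 0.0512 to 0.235.

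**Figure D5:**
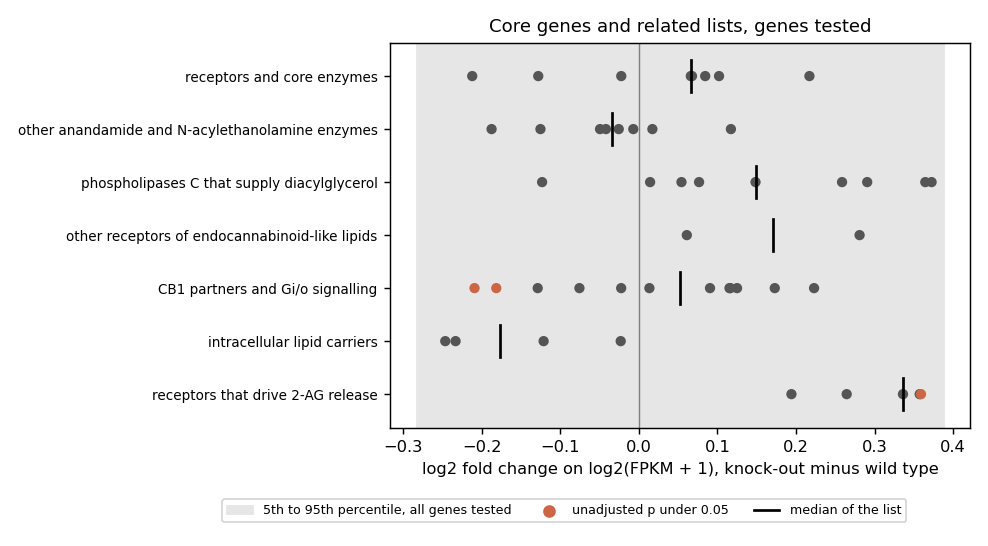
Log2 fold change on log2(FPKM + 1), knock-out minus wild type, of each gene tested, by list, with the list median as a black bar, genes at unadjusted p under 0.05 in orange and the 5th to 95th percentile of all genes tested in grey. All points lie within the grey band, and 3 of the 40 genes outside the core list are orange.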

How the data were processed

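The authors deposited FPKM per gene for each library; the tools behind them, per the submitters' processing notes, were Cufflinks, HISAT2 and SAMtools, and versions, options and use of strand were not given in the sources used here. Per the labels' protocols, libraries were made from 1 ug of total RNA with a NEBNext Ultra kit. The notes list the build mm8, but 45128 deposited loci (91.5% of those with a symbol) equalled GENCODE M21 on GRCm38, among them 8 of the 9 genes described. The locus of Abhd6 ended earlier, and its annotated coordinates are given. FPKM are not counts, so limma 3.58.1 in R 4.3.3 (trend and robust options, two-sided) was fitted to log2(FPKM + 1). The fit took all 15061 genes with a mean of at least 1 FPKM over the 8 libraries, with Benjamini-Hochberg adjustment over all of them. The same fit was run on simulated data with independent noise in each library, which lacked the shared first component of these data. The added 1 makes fold changes of low genes too small. Depth was estimated from single-transcript genes of at least 3000 nt, in which 98.0% to 98.7% of low values lay within 0.15 of a whole fragment, against 30% by chance. Members and lists were chosen with earlier results of these data known. Named beside the members were up to 3 genes of lowest p per pathway list, the 5 protein-coding genes most correlated with Cnr1, leaving out predicted gene models, and genes overlapping a member. The alternatives were a pseudocount of 0.1, no filter, a mean of at least 5 FPKM, median-ratio and quantile scaling, limma without trend or robust, library weights, a replicate block, removal of the length trend, and leaving out each library.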

Additional observations from a re-analysis of the deposited data

Results flagged for a closer look

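In 5 of 52 sets of 4 libraries examined (26 genes, 2 genotypes), 1 library stood apart from the other 3 by Dixon's criterion, which chance meets in about 1 of 20 sets. In wild type, Daglb was at 5.30 FPKM in replicate 1 against 7.57 to 7.71 in the others. In knock-out, Daglb was at 7.02 FPKM in replicate 4 against 7.71 to 7.81. Wild type replicate 4 was high for Plcb4, at 87.8 FPKM against 45.95 to 52.9, and for Grm5, at 43.2 FPKM against 27.3 to 27.9. Knock-out replicate 3 was low for Grm5, at 34.1 FPKM against 41.3 to 42.7.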

How the results depend on the processing

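The log2 fold changes of the 8 tested genes were recomputed under 18 alternatives, 144 values in all; 139 kept their direction, 5 changed sign and none passed the adjusted threshold (lowest limma adjusted p 0.0600, Cnr1 with library weights). The sign changes were Faah with the length trend removed (-0.033), Abhd6 with library weights (-0.044), Dagla without wild type replicate 4 (0.021) or knock-out replicate 4 (0.040), and Daglb without wild type replicate 1 (-0.012). Leaving out 1 library gave -0.082 to 0.040 for Dagla and -0.012 to 0.14 for Daglb. Over all genes, the number past the adjusted threshold was 1627 with library weights and 0 to 1 with 1 library left out; at unadjusted p under 0.05 it was 5014 with weights, 1396 without the filter and 325 to 3151 with 1 library left out; genes whose genotypes did not overlap numbered 826 without the filter, 298 at a mean of at least 5 FPKM, and 649 to 2868 with 1 library left out. With the replicate number as a block, 790 genes had an unadjusted p under 0.05, against 831 without it, and none of the 8 tested endocannabinoid genes passed either threshold. The deviations of same-numbered libraries from their group means had correlations of -0.108, -0.055, 0.024 and 0.144 for numbers 1 to 4. Such correlations cannot exclude a smaller shared effect, and the labels do not say whether the numbers pair the libraries. Depth limits Cnr2, which was tested only without the filter (-0.013).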
